A study of Arabidopsis thaliana with 12 samples.

Results

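The 124 genes described here had at least 4-fold less RNA in WUS-GR seedlings than in the wild type Col-0, both without and with an inhibitor of histone deacetylases. They were selected on the measured values themselves: the mean log2 CPM (counts scaled to a common library size) of the 3 WUS-GR libraries had to lie at least 2 below that of the 3 Col-0 libraries, both after dexamethasone (DEX) alone and after DEX plus trichostatin A (TSA), with a mean log2 CPM above 1 over the 12 libraries and chloroplast and mitochondrial genes left out. Of 34262 genes in the table, 17915 passed a filter on low counts, and the 124 were 0.692% of these. Because the differences between genotypes chose the genes, they are given below as a description without a test. The change with TSA within each genotype was tested, because the rule did not use it directly. The rule did use the same libraries, so these tests are not independent of the choice of genes.

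All seedlings were harvested 5 days after germination as whole seedlings, after 2 h in 25 µM DEX (the concentration in the sample labels; the study's methods give a lower one). The 4 groups of 3 libraries were Col-0 with DEX, the wild type; WUS-GR with DEX, which carries the pUBI10::mCherry-GR-linker-WUS transgene; Col-0 with DEX and 1 µM TSA; and WUS-GR with DEX and 1 µM TSA. DEX was thus present in every library, including the controls, and no WUS-GR seedlings without DEX were analysed here. The promoter of the transgene is active throughout the plant, so WUS accumulated in tissues that do not normally contain it. WUS counts ran from 27 to 52 in Col-0 and from 94664 to 142276 in WUS-GR; these counts include the transgene.

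WUSCHEL (WUS) is a homeodomain transcription factor made in the organizing center of the shoot apical meristem, from which it moves into the overlying stem cells. It can repress as well as activate genes, and repression of this kind commonly involves corepressors that recruit histone deacetylases. TSA inhibits these enzymes and raises histone acetylation. In the fusion used here, a steroid receptor domain (GR, from the glucocorticoid receptor) holds the protein in the cytoplasm until DEX is added. The study asked how far the response to WUS depended on deacetylation. The genes below are at the end of that comparison where the difference between genotypes stayed at 4-fold or more with the inhibitor present.

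Total counts per library were 14810658 to 21578662. The scaling factor of the trimmed mean of M values (TMM) was 0.842 to 0.850 in the WUS-GR libraries with TSA and 0.981 to 1.131 in the others. Among cell type markers, those of root hairs (EXPA7, SHV2, RSL4) had summed values of at most 0.0800 CPM in every library, although the source is labelled as whole seedling. The summed level of the phloem markers SUC2 and APL was 173 to 189 CPM in Col-0 with DEX and 58.5 to 62.7 CPM in WUS-GR with DEX. With TSA the same sum was 277 to 307 CPM in Col-0 and 182 to 196 CPM in WUS-GR. The 2 root stele markers SKOR and PHO1 had 11.4 to 16.3 CPM in Col-0 and 4.51 to 5.92 CPM in WUS-GR with DEX, and 20.7 to 24.0 and 7.12 to 10.3 CPM with TSA. The 3 mesophyll markers were at 8060 to 11200 CPM in Col-0 and 10600 to 13700 CPM in WUS-GR with DEX, and at 11200 to 14200 and 18700 to 19100 CPM with TSA. The guard cell markers MYB60, FMA and EPF1 summed to 5.99 to 7.45 CPM in Col-0 and 12.1 to 13.3 CPM in WUS-GR with DEX, and to 13.8 to 16.8 and 24.2 to 33.4 CPM with TSA. The epidermis markers ATML1 and PDF1 were higher in WUS-GR with DEX (136 to 144 against 67.4 to 111 CPM) and lower with TSA (127 to 139 against 222 to 267 CPM). The xylem markers XCP1 and IRX3 had 0.833 to 1.12 CPM in Col-0 and 2.87 to 4.37 CPM in WUS-GR with DEX, and 0.803 to 2.19 and 4.47 to 5.60 CPM with TSA. The endodermis markers overlapped between genotypes with TSA (18.2 to 26.6 and 16.5 to 26.7 CPM), and were at 15.8 to 19.3 and 10.7 to 15.1 CPM with DEX. The 2 root surface transport markers summed to at most 5.19 CPM in any library. In each group, only 1 of the 2 root stele and 2 of the 3 guard cell markers had at least 10 counts in every library. In the Col-0 groups this held for 1 of the 2 xylem and 2 of the 3 endodermis markers. The part of the marker shifts in the differences below was not tested. In whole seedlings, fewer cells of a type and less RNA per cell cannot be told apart.

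Over the 124 genes, the difference WUS-GR minus Col-0 had a median of -3.18 in log2 CPM with DEX alone (range -6.06 to -2.03) and of -2.47 with DEX plus TSA (range -5.46 to -2.0), against -0.01 in both treatments over all genes tested. Differences of -2 or below were found in 3.71% of all genes tested with DEX alone and in 2.37% with DEX plus TSA; these shares are parts of the rule and nothing is read from them. The summed level of the 124 genes was 17500 to 21000 CPM in Col-0 with DEX and 1420 to 2120 CPM in WUS-GR with DEX. With TSA the sum was 11800 to 13400 CPM in Col-0 and 2100 to 2240 CPM in WUS-GR. A few abundant genes weigh heavily in this sum: the mean of PLA2A in Col-0 was 3150 CPM with DEX and 1090 CPM with TSA, and that of BGAL4 2620 and 690 CPM. The median level of the 124 genes was 4.39 to 4.81 in log2 CPM in the Col-0 libraries with DEX and 4.51 to 4.63 with TSA, so that it overlapped. In WUS-GR it was 1.10 to 1.67 with DEX and 1.77 to 1.90 with TSA, where the sums overlapped and the medians did not. The difference was smaller in size with TSA for 99 genes and larger for 25. It shrank by 1 or more for 46 genes and grew by 1 or more for 1, the MATE efflux gene ZF14, named after its values were seen (-2.77 with DEX, -3.82 with TSA). The 2 genotypes did not overlap for any of the 124 genes in either treatment, which the rule makes likely. The share of all genes tested without overlap is not given, so nothing is read from this. No gene was at the detection floor of 3 counts or fewer in all 3 WUS-GR libraries of a treatment.

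**Figure D1:**
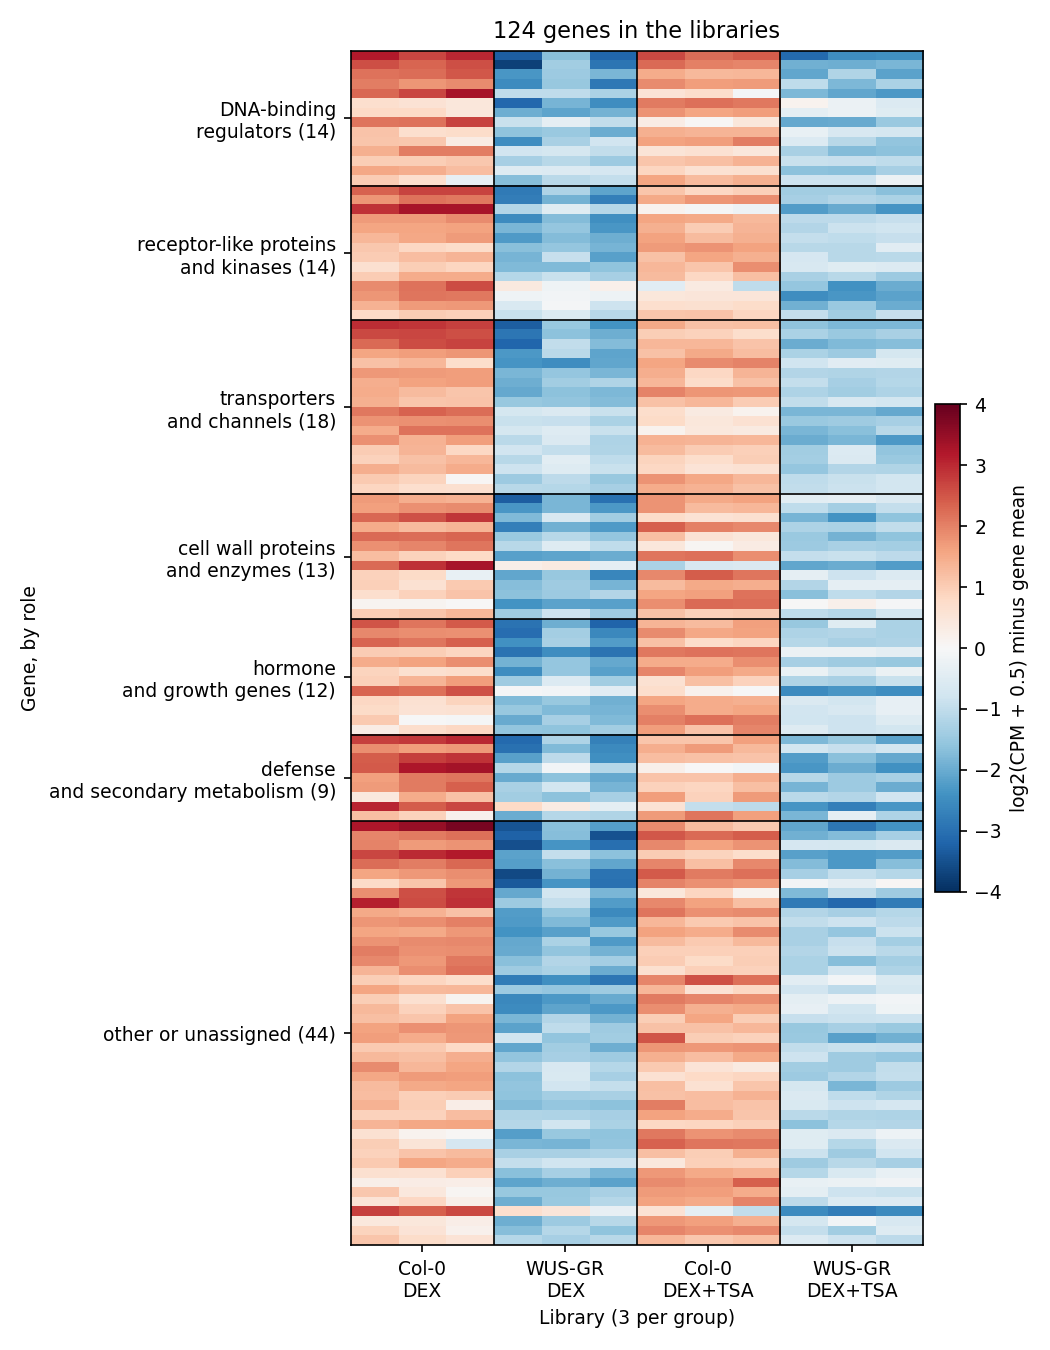
Level of each of the 124 genes (one row each, grouped by role with the number of genes in parentheses) in the 12 libraries, as log2(CPM + 0.5) minus the gene's mean over the libraries (red above, blue below). The summed level of the genes lay at 17500 to 21000 CPM in Col-0 with DEX and at 1420 to 2120 CPM in WUS-GR with DEX.

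Among the WUS-GR libraries with DEX, replicate 2 stood apart. It held the highest value of its group for 91 of the 124 genes, and its summed level was 2120 CPM against 1500 and 1420 CPM in replicates 1 and 3. Its WUS count of 118246 was close to the 112961 and 110757 counts of the others. Without it, the rule found 134 genes, of which 123 were among the 124, and the median difference with DEX alone was -3.32.

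Just inside the line lay CDSP32, a thioredoxin of the chloroplast (-3.76 with DEX, -2.0 with TSA), AT1G63010, a major facilitator protein with an SPX domain (-2.18 and -2.01), and AT1G62480, annotated as a vacuolar calcium-binding protein (-3.45 and -2.02). Just outside it lay AT1G62760 (-2.343 and -1.995), AT5G18600 (-1.993 and -2.524) and WRKY45 (-1.989 and -2.718). A further 301 genes met the line with DEX alone only and 58 with DEX plus TSA only. Another 120 genes met both lines but had a mean log2 CPM not above 1 or lay in an organelle genome.

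**Figure D2:**
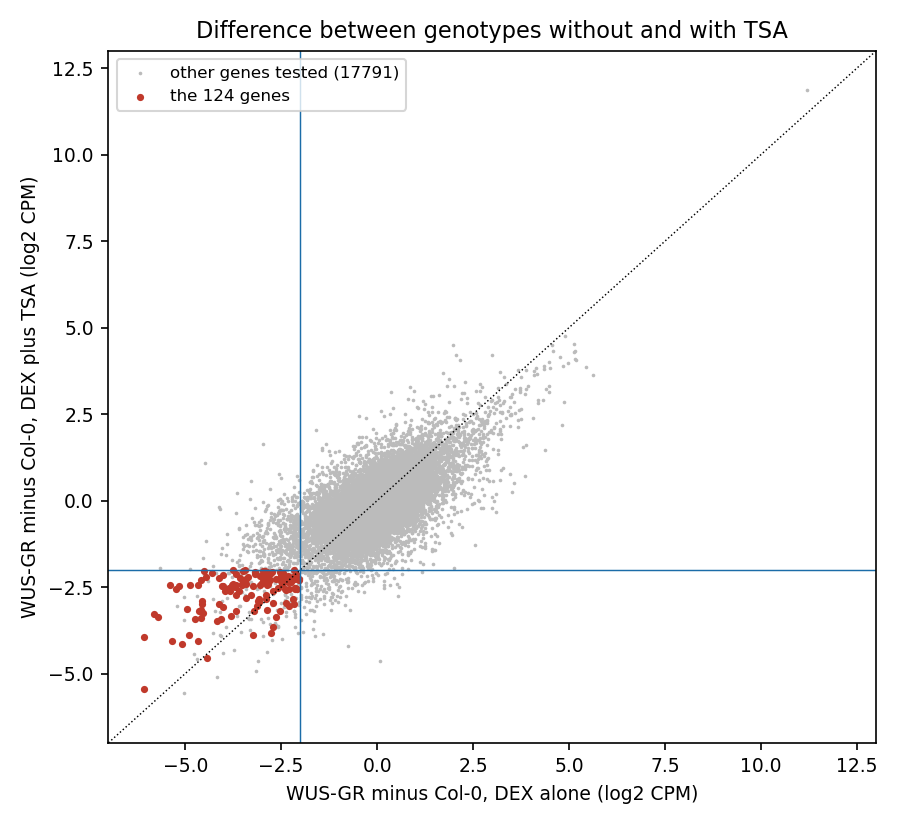
Difference in mean log2 CPM between WUS-GR and Col-0 with DEX alone (horizontal axis) and with DEX plus TSA (vertical axis) for each gene tested; red points are the 124 genes, grey points the other genes, blue lines mark -2 and the dotted line marks equal differences. Most red points (99 of 124) lie above the dotted line, where the difference is smaller in size with TSA.

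By role, assigned by hand from annotation after the genes were known, 14 encode DNA-binding regulators, 14 receptor-like proteins and kinases, 18 transporters and channels, 13 cell wall proteins and enzymes, 12 hormone and growth proteins and 9 proteins of defense and secondary metabolism, while 44 were unassigned or of other kinds. The group medians of the difference with DEX alone lay between -3.86 (defense and secondary metabolism) and -2.96 (hormone and growth), and with TSA between -2.82 and -2.42. Of the 124 genes, 122 are annotated as protein coding. They had a median of 3 exons and 1772.5 exonic bases, against 5 exons and 1809 bases over all genes tested with an annotation. Chromosome 5 carried 40 of them, chromosome 1 29, chromosome 4 22, chromosome 2 17 and chromosome 3 16. The gene models of 28 overlap a gene on the other strand, and because the strand setting of the counting is not given in the sources used here, reads of those genes and of their partners cannot be told apart. Among the genes named below these are AT5G07580, AT3G18960, PKS1, CRK11, FLS2, NPF6.2, PUP7, BGAL4, ORS1, FKD1, DFL2, AT5G23510 and ABCB21.

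Promoter sequence is shown for 6 of the genes, which are those that carry, in a window of 250 bases before to 50 bases after the annotated start, either 2 copies of one sequence word described for WUS or one copy of each of both words. The words are TTAATGG, a core to which WUS binds, and TGAATGA, a repeat element described at WUS target genes; both strands were searched. In the sequences, taken from RefSeq (build TAIR10.1) and written 5′ to 3′ on the strand of the gene, capitals mark the words or their reverse complements. The windows are chr5:3854138-3854437 (plus strand) for LOG8, chr1:11200092-11200391 (minus strand) for AT1G31310, chr4:11592376-11592675 (minus strand) for MSRB9, chr5:6469822-6470121 (plus strand) for AT5G19240, chr4:11405186-11405485 (minus strand) for the kinase gene CRK29 and chr3:23013981-23014280 (minus strand) for the ABC transporter gene ABCB21. In MSRB9 and in CRK29 the 2 copies overlap.
LOG8: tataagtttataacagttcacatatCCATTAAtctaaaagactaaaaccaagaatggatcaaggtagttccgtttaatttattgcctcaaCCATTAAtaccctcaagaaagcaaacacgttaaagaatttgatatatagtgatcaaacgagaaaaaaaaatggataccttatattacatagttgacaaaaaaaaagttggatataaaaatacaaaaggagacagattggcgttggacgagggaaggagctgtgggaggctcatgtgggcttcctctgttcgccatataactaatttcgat
AT1G31310: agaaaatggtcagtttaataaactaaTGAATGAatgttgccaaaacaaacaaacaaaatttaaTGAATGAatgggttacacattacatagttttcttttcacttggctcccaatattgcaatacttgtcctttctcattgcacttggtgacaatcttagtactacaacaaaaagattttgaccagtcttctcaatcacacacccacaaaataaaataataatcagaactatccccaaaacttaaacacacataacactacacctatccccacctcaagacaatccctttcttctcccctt
MSRB9: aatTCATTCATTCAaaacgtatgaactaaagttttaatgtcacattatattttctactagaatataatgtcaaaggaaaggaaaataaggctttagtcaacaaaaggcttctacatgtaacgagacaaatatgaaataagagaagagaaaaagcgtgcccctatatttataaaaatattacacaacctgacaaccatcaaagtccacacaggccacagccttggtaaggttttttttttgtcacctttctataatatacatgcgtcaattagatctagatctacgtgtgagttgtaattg
AT5G19240: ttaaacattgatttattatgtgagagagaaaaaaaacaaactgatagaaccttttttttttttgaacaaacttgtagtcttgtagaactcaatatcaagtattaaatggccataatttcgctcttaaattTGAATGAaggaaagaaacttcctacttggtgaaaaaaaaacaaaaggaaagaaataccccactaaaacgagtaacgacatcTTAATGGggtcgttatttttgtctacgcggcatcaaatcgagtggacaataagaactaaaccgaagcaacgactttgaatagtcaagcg
CRK29: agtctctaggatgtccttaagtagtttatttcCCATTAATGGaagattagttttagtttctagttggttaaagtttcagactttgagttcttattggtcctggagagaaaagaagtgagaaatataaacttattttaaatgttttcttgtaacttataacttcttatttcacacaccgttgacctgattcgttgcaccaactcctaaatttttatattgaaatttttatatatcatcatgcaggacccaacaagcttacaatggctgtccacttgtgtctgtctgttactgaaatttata
ABCB21: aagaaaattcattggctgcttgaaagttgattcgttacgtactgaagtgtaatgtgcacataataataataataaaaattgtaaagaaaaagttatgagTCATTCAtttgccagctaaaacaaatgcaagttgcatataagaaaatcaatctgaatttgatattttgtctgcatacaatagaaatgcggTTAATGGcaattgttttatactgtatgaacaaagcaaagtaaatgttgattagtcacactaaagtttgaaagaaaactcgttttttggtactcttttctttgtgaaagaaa

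These 6 windows are a minority. TTAATGG was present in the windows of 7 of the 124 genes (5.65%), against 8.76% of all 17772 genes tested with a window. TGAATGA was present in 16 (12.9%), against 6.88% of all and 9.97% of the 301 genes that met the line with DEX alone only. Both words together were present in 2 genes, AT5G19240 and ABCB21. Of other words searched on both strands, the G-box CACGTG was in 8.06% of the windows of the 124 genes and 9.22% of all, the W-box core TTGAC in 54.8% and 50.8%, and the GCC box GCCGCC in 5.65% and 2.85%. A match describes the letters only.

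Among the DNA-binding regulators, RAP2.6 (AT1G43160), an AP2/ERF factor known from responses to stress and stress hormones, had 108, 76.6 and 97.2 CPM in Col-0 with DEX and 0.735, 3.29 and 0.840 CPM in WUS-GR with DEX. With TSA it had 75.4, 56.4 and 63.9 CPM in Col-0 and 0.886, 1.64 and 1.76 CPM in WUS-GR. The means in WUS-GR were thus 57.9-fold lower without and 45.6-fold lower with TSA, the deepest difference with TSA in the set (-5.46); with DEX alone AT1G27020, of little known function, lay as deep (-6.06 for both). Its change with TSA did not pass the test in either genotype (edgeR quasi-likelihood test, Benjamini-Hochberg adjusted p = 0.0647 in Col-0 and 0.707 in WUS-GR), although in Col-0 it passed when replicate 2 of Col-0 with DEX or a WUS-GR library with DEX was left out of the fit (adjusted p = 0.00432 to 0.0476).

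DEWAX (AT5G61590), an AP2/ERF repressor of genes for cuticular wax, had 171, 142 and 169 CPM in Col-0 with DEX and 1.65, 10.4 and 3.27 CPM in WUS-GR. With TSA the values were 138, 115 and 110 CPM in Col-0 and 7.03, 6.90 and 7.60 CPM in WUS-GR. Replicate 2 was the highest of WUS-GR with DEX, and without that library the change with TSA in WUS-GR was 1.53 (adjusted p = 2.36e-05) in place of 0.47 ± 0.40 (SE; adjusted p = 0.308). PTF1, also known as TCP13, is a TCP factor of leaf growth. It had 16.0, 16.6 and 19.8 CPM in Col-0 with DEX and 0.230, 0.833 and 0.531 CPM in WUS-GR, and 9.67, 8.46 and 8.60 against 0.354, 1.07 and 0.320 CPM with TSA. In Col-0 it fell by 0.97 with TSA (SE 0.20, adjusted p = 5.13e-04).

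AT5G07580, an ethylene-responsive factor, was at 32.9 to 39.7 CPM in Col-0 and 0.840 to 2.94 CPM in WUS-GR with DEX, and at 30.6 to 35.6 and 2.32 to 4.31 CPM with TSA. Its rise of 1.02 in WUS-GR (adjusted p = 0.0124) did not pass without replicate 1 or 3 of WUS-GR with DEX or replicate 1 of WUS-GR with TSA (adjusted p = 0.0516, 0.0565 and 0.0860). The MYB factor MYB23, which acts in trichome patterning, had 8.30, 8.15 and 4.62 CPM in Col-0 and 0.230, 1.18 and 1.90 CPM in WUS-GR with DEX. With TSA these were 12, 12.5 and 16.4 CPM in Col-0 and 2.30, 1.41 and 0.880 CPM in WUS-GR, so that its difference was as deep with TSA (-3.15) as without (-2.86). MYB31, a MYB factor, differed by -2.84 with DEX and -2.40 with TSA. AT2G02060, a homeodomain-like protein, rose with TSA in both genotypes, from 7.88 to 9.11 CPM up to 25.0 to 27.5 CPM in Col-0 and from 0.184 to 1.18 CPM up to 3.68 to 6.20 CPM in WUS-GR. PHL1, a relative of the phosphate starvation regulator PHR1, fell with TSA in both (by 0.76 in Col-0 and 1.21 in WUS-GR, adjusted p = 8.48e-05 and 2.94e-05). AT3G18960, of the AP2/B3-like family, had differences of -2.05 and -2.27. WRKY75, chosen after its values were seen, is a WRKY factor of senescence and phosphate starvation, and its differences were -4.12 and -2.98. Lists of regulator families were chosen by words of the annotation. The set held 2 of 83 tested genes on the MYB list (2.41%) and 2 of 151 on the homeobox list (1.32%). It held 1 of 45 on the WRKY list (2.22%) and 2 of 43 on the AP2/ERF list (4.65%), against 0.692% of all genes tested. The 2 on the homeobox list, PHL1 and AT2G02060, are annotated only as homeodomain-like, so neither is shown to be a homeobox gene. The AP2/ERF list counts AT5G07580 and AT3G18960, the second of which is annotated as AP2/B3-like. It misses RAP2.6, DEWAX and RAP2.2 (-2.32 and -2.19, named after its values were seen), whose annotation lacks its words. The 4.65% is thus a share of that list and not of the AP2/ERF factors. These shares rest on 1 or 2 genes each.

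Receptor-like proteins and kinases were the second group, and the set held 14 of 1012 tested genes with the word kinase in their annotation (1.38%, against 0.692% of all genes tested). The 14 include PKS1, a substrate of phytochrome kinase activity that is no kinase itself, and the kinase-related AT3G22060. The cysteine-rich receptor-like kinases (CRKs) are membrane proteins with a paired extracellular domain, many of which are induced in defense. CRK28 had 379, 444 and 495 CPM in Col-0 with DEX and 31.3, 44.9 and 38.7 CPM in WUS-GR. With TSA it had 464, 368 and 405 CPM in Col-0 and 78.7, 74.2 and 80.7 CPM in WUS-GR. In Col-0 the change with TSA was -0.09 (adjusted p = 0.528) and in WUS-GR it rose by 1.02 (SE 0.13, adjusted p = 3.72e-06). CRK29, its neighbor on chromosome 4, had 672, 666 and 760 CPM in Col-0 and 35.8, 61.6 and 37.0 CPM in WUS-GR with DEX, and 620, 589 and 504 against 99.8, 99.6 and 109 CPM with TSA. The gene models of the pair overlap by 470 bases on the same strand, so their counts may share reads and are not independent of each other.

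CRK11 and CRK41, named after their values were seen, completed the family's 4 genes in the set, of 21 tested (19.0%, against 0.692% of all genes tested). CRK11 fell with TSA in both genotypes, by 1.55 in Col-0 and 2.19 in WUS-GR. Over the 21 CRK genes the median difference was -1.08 with DEX and -0.64 with TSA. CRK10 was higher in WUS-GR with DEX (1.27), and CRK2 (-3.24 and -1.45) and CRK39 (-2.86 and -0.79) met the line with DEX alone but not with TSA. CRK12 met it in both (-3.45 and -2.09) and was left out by its low level (mean log2 CPM of 0.37). At -1 or below in both treatments were 7 of the 21 (33.3%, against 5.60% of all genes tested), and 0 were at 1 or above in both. The family was added as a list after the data were seen, and its 4 genes in the set are among these 7 by the rule itself. AT3G22060, a receptor-like kinase-related protein, was among the more abundant genes, at 690, 884 and 869 CPM in Col-0 and 18.3, 56.9 and 30.7 CPM in WUS-GR with DEX. In Col-0 it fell by 1.64 with TSA (SE 0.26, adjusted p = 4.03e-05), to 287, 237 and 257 CPM, while WUS-GR had 51.0, 50.5 and 41.7 CPM. In WUS-GR its change with TSA was 0.44 (adjusted p = 0.153), and 0.96 without replicate 2 of WUS-GR with DEX (adjusted p = 3.23e-04).

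AT5G61560, a U-box kinase, had 255, 342 and 338 CPM in Col-0 with DEX and 37.8, 33.3 and 29.8 CPM with TSA, and thus fell by 3.21 (SE 0.17, adjusted p = 4.00e-10). In WUS-GR it went from 15, 24.1 and 15.3 CPM to 6.79, 7.98 and 6.24 CPM, so that it fell by 1.36 (SE 0.19, adjusted p = 1.02e-05). AT1G51890, a leucine-rich repeat kinase, fell by 2.74 in Col-0 and fell by 2.91 in WUS-GR (adjusted p = 1.49e-06 and 5.71e-05). FLS2, the receptor for bacterial flagellin, was named after its values were seen. It had 112, 140 and 141 CPM in Col-0 and 27.7, 39.6 and 23.7 CPM in WUS-GR with DEX, and 68.4, 65.9 and 70.6 against 10.9, 14.7 and 10.4 CPM with TSA.

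**Figure D3:**
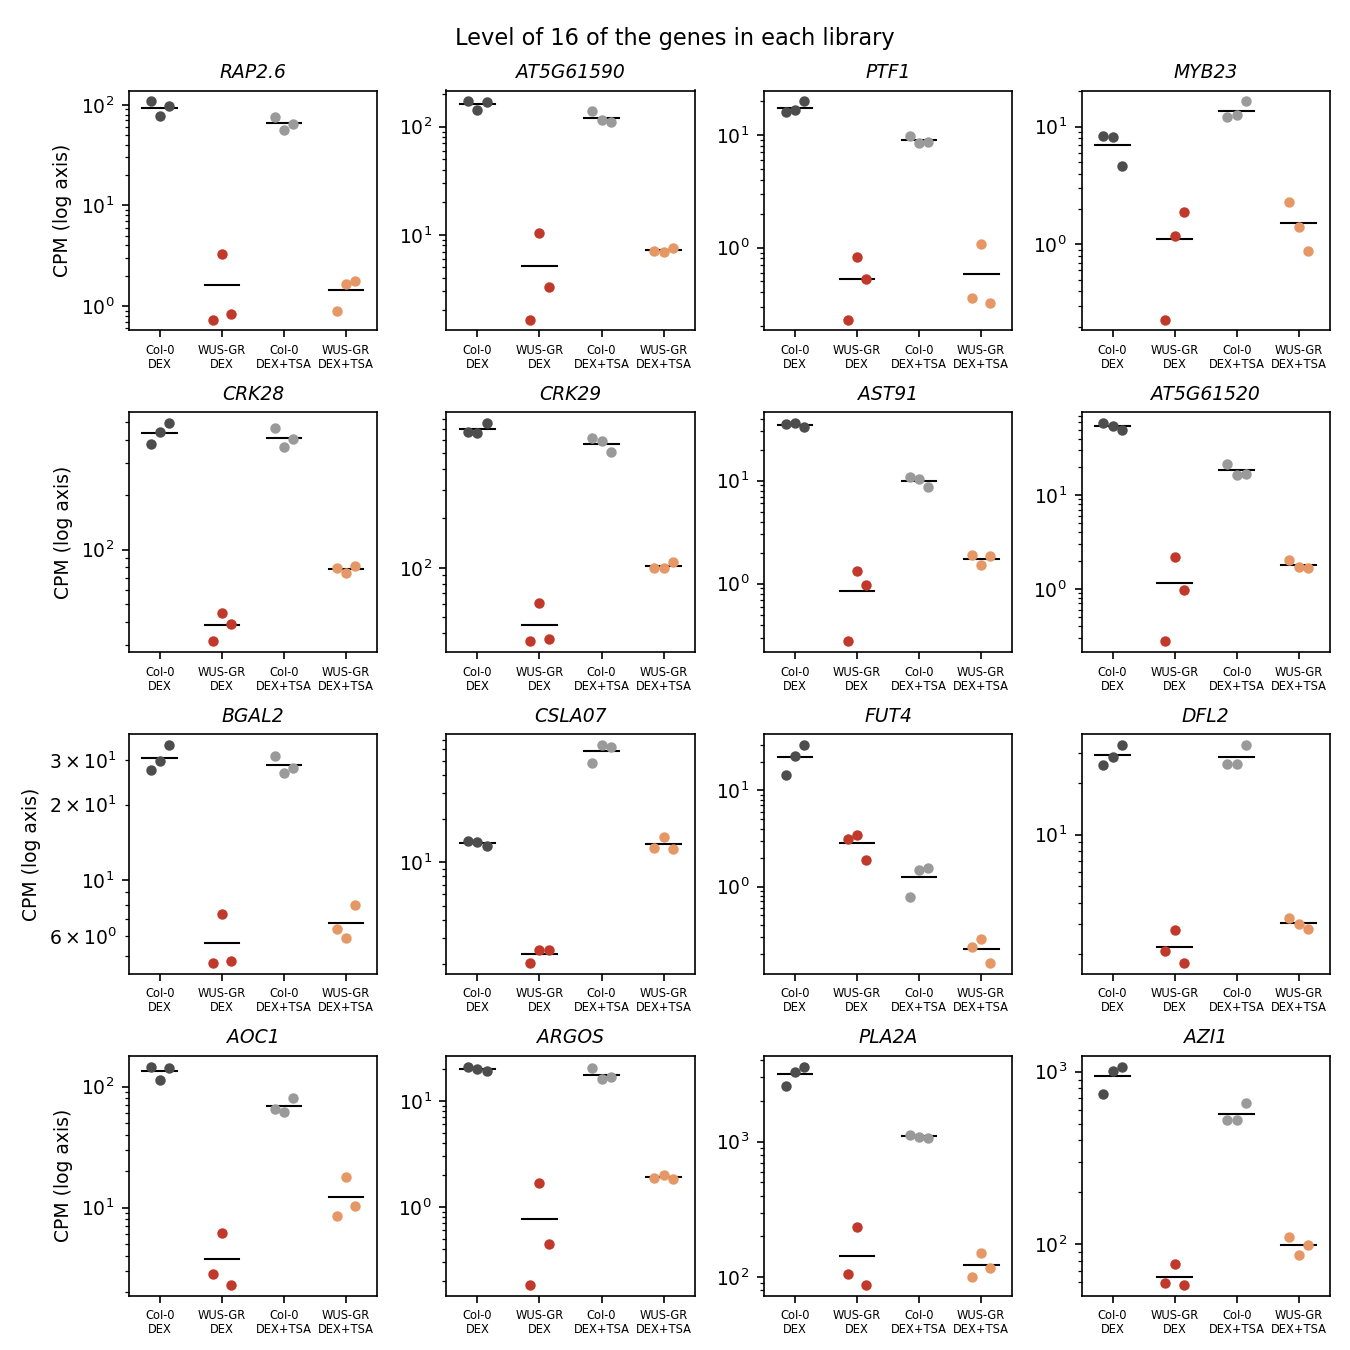
CPM of 16 of the 124 genes in each library (points) on a logarithmic axis, with a bar at the mean of the 3 libraries, for Col-0 and WUS-GR with DEX and with DEX plus TSA. In every panel all WUS-GR points lie below all Col-0 points of the same treatment, which the rule makes likely. In FUT4 the Col-0 points with TSA (0.773 to 1.56 CPM) lie below the WUS-GR points without TSA (1.90 to 3.46 CPM).

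Transporters were the largest named group. AST91, a sulfate transporter named after its values were seen, had 35.1, 36.1 and 33.5 CPM in Col-0 with DEX and 0.276, 1.32 and 0.973 CPM in WUS-GR, a 40.9-fold lower mean. With TSA it fell in Col-0 to 10.9, 10.3 and 8.74 CPM and rose in WUS-GR to 1.89, 1.53 and 1.84 CPM, which left a 5.70-fold lower mean. The rise in WUS-GR (1.01, SE 0.33, edgeR adjusted p = 0.0117) did not pass with scaling by library totals alone (0.61, adjusted p = 0.111). AT5G61520, a major facilitator protein, had 58.7, 54.7 and 50.2 CPM in Col-0 and 0.276, 2.19 and 0.973 CPM in WUS-GR with DEX. With TSA the levels were 21.5, 16.6 and 17.0 CPM and 2.01, 1.70 and 1.68 CPM. Its fall in Col-0 was 1.57 (SE 0.22, adjusted p = 1.19e-05), and its change in WUS-GR, 0.64 ± 0.41 (SE; adjusted p = 0.183), was 1.51 (adjusted p = 0.00165) without replicate 2 of WUS-GR with DEX.

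The list of nitrate and peptide transporters held 2 of 26 tested genes. NPF6.2 (AT2G26690) had 39.1 to 51.4 CPM in Col-0 and 4.0 to 5.48 CPM in WUS-GR with DEX, and 61.7 to 72.3 against 6.62 to 7.38 CPM with TSA, so that it rose by nearly the same amount in both (0.55 and 0.57, adjusted p = 4.36e-04 and 0.00249), the rise in WUS-GR not with library totals alone (0.17, adjusted p = 0.338). PTR4, a member of the NPF8 group, was at 10.8 to 13.6 CPM in Col-0 and 1.06 to 1.33 CPM in WUS-GR with DEX. The tonoplast fructose carrier SWEET17, named after its values were seen, had 8.17, 8.75 and 9.34 CPM in Col-0 and 0.0919, 0.877 and 0.177 CPM in WUS-GR with DEX, and 6.13, 7.85 and 6.38 against 0.709, 0.566 and 1.28 CPM with TSA. Its change in WUS-GR was 1.06 (adjusted p = 0.0920), and 2.54 without replicate 2 of WUS-GR with DEX (adjusted p = 3.87e-04). Of the other 6 SWEET genes tested, SWEET10, left out of the set by its low level (mean log2 CPM of -1.03), differed by -3.60 with DEX and -3.06 with TSA. SWEET11, a phloem loading carrier, differed by -3.09 and -0.99, SWEET12 by -1.54 and -0.53 and SWEET2 by -0.39 and 1.23, while SWEET1 and SWEET16 were higher in WUS-GR with DEX (0.85 and 1.10).

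A cluster on chromosome 4 (TAIR10.1, 10069458 to 10075370) held PUP8, the directly adjacent PUP7 and, with 1 annotated gene in between, AT4G18205. Purine permeases carry purines and related compounds across membranes. PUP8 had 6.84 to 10.2 CPM in Col-0 and 1.28 to 1.93 CPM in WUS-GR with DEX, and PUP7 5.99 to 8.07 and 1.10 to 2.06 CPM. AT4G18205, annotated as a nucleotide-sugar transporter, was more abundant, with 79.4, 76.5 and 75.5 CPM in Col-0 and 6.16, 7.72 and 6.19 CPM in WUS-GR. The next gene of the family, PUP10, differed by -1.95 and -1.72 and met neither line, while PUP14 and PUP18, on chromosome 1, differed by 0.22 and -0.27 with DEX. Also outside the cluster, PUP1 (-1.73 and -1.09) and PUP5 (-1.11 and -1.34) were lower in both treatments. PUP11 differed by -0.10 and -0.38, and PUP4 was higher in both (1.47 and 0.83). The purine permeases were added as a list after the data were seen, and PUP7 and PUP8 meet a line of -1 by the rule itself. Of the 9 purine permeases tested, 5 were at -1 or below in both treatments (55.6%, against 5.60% of all genes tested). These paralogs are similar, and counts of paralogs are uncertain where reads fit more than one. Other direct neighbors in the set were TMAC2 and PTF1 on chromosome 3 and the ankyrin repeat genes AT5G54710 and AT5G54720 on chromosome 5. The last pair had 36.3 to 42.0 and 7.49 to 11.1 CPM in Col-0 with DEX and 5.53 to 7.76 and 1.52 to 1.71 CPM in WUS-GR.

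Cell wall genes covered enzymes of wall synthesis and of wall turnover. Of the families known for wall loosening, 0 of 16 tested expansins and 0 of 22 tested xyloglucan endotransglucosylase/hydrolases were in the set, close to the background of 0.692%, and 0 and 3 (13.6%) of them were at -1 or below in both treatments, against 5.60% of all genes tested. BGAL2, a β-galactosidase, followed the mean of the 124 genes most closely of all (Pearson's r = 0.9940 over the 12 libraries, a description, since the gene is part of that mean). It had 27.4, 29.9 and 34.6 CPM in Col-0 and 4.69, 7.36 and 4.78 CPM in WUS-GR with DEX, and 31.3, 26.8 and 28.1 against 6.38, 5.88 and 8.00 CPM with TSA. BGAL4 was far more abundant, at 2130, 2580 and 3140 CPM in Col-0 and 128, 280 and 165 CPM in WUS-GR with DEX. In Col-0 it fell by 1.92 with TSA (SE 0.24, adjusted p = 3.95e-06). Of the other β-galactosidases, BGAL10, BGAL5, BGAL7 and MUM2 were higher in WUS-GR with DEX (1.84 to 2.89), so the 2 genes did not stand for the 13 tested.

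CSLA07, a glucomannan synthase, had the strongest rise with TSA in Col-0. It had 14.0, 13.8 and 12.9 CPM in Col-0 with DEX and 48.3, 64.4 and 62.1 CPM with TSA, a rise of 2.1 (SE 0.12, adjusted p = 7.14e-10). In WUS-GR it rose from 2.02, 2.5 and 2.48 CPM to 12.6, 15 and 12.3 CPM, by 2.51 (SE 0.15, adjusted p = 6.53e-10). With TSA, WUS-GR thus reached about the level of Col-0 without TSA, and the distance between genotypes stayed. FUT4, a fucosyltransferase of wall glycoproteins, had the strongest fall. It went from 14.4, 22.8 and 29.8 CPM to 0.773, 1.48 and 1.56 CPM in Col-0, by 4.12 (SE 0.29, adjusted p = 9.31e-09). In WUS-GR it fell by 3.56, from 3.12, 3.46 and 1.90 CPM to 0.236, 0.283 and 0.160 CPM (SE 0.50, adjusted p = 1.22e-05). The WUS-GR libraries with TSA held only 2 to 5 counts of FUT4 each.

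Hormone and growth genes came from several pathways. ACS7, an enzyme of ethylene synthesis, was low (mean log2 CPM of 1.46 over the libraries) and was named after its values were seen. It differed by -2.85 with DEX and -2.39 with TSA. AOC1, an enzyme of jasmonate synthesis named for the same reason, had 146, 113 and 142 CPM in Col-0 and 2.80, 6.18 and 2.30 CPM in WUS-GR with DEX. With TSA it had 65.5, 61.4 and 79.7 CPM in Col-0 and 8.50, 18.0 and 10.2 CPM in WUS-GR.

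ARGOS and its relative ORS1 (OSR1), both named after their values were seen, promote organ growth. ARGOS had 21.0, 20 and 19.3 CPM in Col-0 and 0.184, 1.67 and 0.442 CPM in WUS-GR with DEX, and 20.2, 15.9 and 16.7 against 1.89, 1.98 and 1.84 CPM with TSA. ORS1 behaved differently with TSA: it fell from 20.5, 18.7 and 23.9 CPM to 6.30, 4.23 and 3.59 CPM in Col-0 and from 3.54, 3.38 and 2.56 CPM to 0.236, 0.339 and 0.240 CPM in WUS-GR. Its difference was therefore deeper with TSA (-3.65) than without (-2.70), but the WUS-GR libraries with TSA held only 3 to 6 counts of it each. The third gene of the family, ARL, differed by -2.75 and -1.5 and so met the line only with DEX alone. DFL2, a GH3 family gene, had 25.7, 28.6 and 33.5 CPM in Col-0 and 2.07, 2.76 and 1.77 CPM in WUS-GR with DEX and 25.9, 25.9 and 33.5 against 3.25, 3.0 and 2.80 CPM with TSA, and it also tracked the mean of the set (r = 0.9939), as did AT4G18205 (r = 0.9938).

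LOG8, of the family that activates cytokinins and named after its values were seen, rose with TSA in both genotypes (1.21 in Col-0 and 2.82 in WUS-GR, adjusted p = 3.63e-08 and 9.19e-11). TMAC2, a repressor in abscisic acid responses, had 38.9, 33.9 and 40.0 CPM in Col-0 and 0.965, 2.67 and 1.15 CPM in WUS-GR with DEX. It fell by 1.39 with TSA in Col-0 (adjusted p = 7.41e-06), and its rise of 0.82 in WUS-GR (adjusted p = 0.0202) did not pass without replicate 1 or 3 of WUS-GR with DEX or replicate 1 of WUS-GR with TSA (adjusted p = 0.0895, 0.0843 and 0.0693). FKD1, which acts in leaf vein formation, had 10.2, 4.68 and 4.48 CPM in Col-0 with DEX and 20.6, 23.2 and 21.0 CPM with TSA. GASA1, a small gibberellin-regulated protein, was with PLA2A the most abundant gene per kb of exon in Col-0 (1290 CPM per kb each). It had 519, 695 and 759 CPM in Col-0 and 143, 140 and 161 CPM in WUS-GR with DEX, and 1340, 938 and 1660 against 300, 241 and 257 CPM with TSA. Of the large auxin gene families, the set held 0 of 29 tested SAUR genes and 0 of 26 tested AUX/IAA genes, which at 0.692% of all genes tested is close to the background. At -1 or below in both treatments were 7 of the SAUR genes (24.1%) and 0 of the AUX/IAA genes, against 5.60% of all genes tested.

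Genes of defense and secondary metabolism had the deepest group median with DEX. PLA2A, a patatin-like lipase, had 2580, 3290 and 3580 CPM in Col-0 and 106, 235 and 87.9 CPM in WUS-GR. With TSA it had 1130, 1090 and 1060 CPM in Col-0, a fall of 1.52 (SE 0.27, adjusted p = 1.26e-04), and 101, 152 and 116 CPM in WUS-GR. AZI1, a lipid transfer protein of systemic immunity, had 743, 1010 and 1070 CPM in Col-0 and 59.1, 76.5 and 57.9 CPM in WUS-GR with DEX, and 527, 527 and 655 against 110, 86.4 and 98.1 CPM with TSA. The genotypes did not overlap in either treatment for both genes, as for every gene of the set. NHL10 (YLS9), a relative of NDR1, fell with TSA in Col-0 from 16.6, 28.6 and 31.1 CPM to 3.09, 2.65 and 2.41 CPM. In WUS-GR it was at 0.919, 2.37 and 0.929 CPM with DEX and at 0.118, 0.283 and 0.0800 CPM with TSA, only a few counts. AACT1, an anthocyanin acyltransferase, fell by 3.06 in Col-0 and 3.05 in WUS-GR (adjusted p = 2.83e-06 and 2.77e-05).

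CYP81F2, which modifies indole glucosinolates, and TGG2, the myrosinase that cleaves glucosinolates, were named after their values were seen. CYP81F2 had 88.2, 115 and 142 CPM in Col-0 and 10.5, 15.9 and 6.90 CPM in WUS-GR with DEX, and was the 1 member among 118 tested cytochromes P450 (0.847%, near the 0.692% of all genes tested). TGG2 had 31.0, 25.8 and 15.1 CPM in Col-0 and 2.99, 5.79 and 5.44 CPM in WUS-GR. With TSA they differed by -2.82 and -3.05.

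Several of the deepest differences belonged to genes of little known function. AT1G27020 had 333, 398 and 492 CPM in Col-0 and 2.71, 10.6 and 7.16 CPM in WUS-GR with DEX, a 59.8-fold lower mean, and 131, 84.9 and 72.9 against 7.91, 4.30 and 6.24 CPM with TSA. AT1G15125, a methyltransferase, was as far apart with TSA (-4.54) as without (-4.43), with 826, 590 and 726 against 35.1, 49.8 and 20 CPM, and 365, 295 and 222 against 13.2, 10.5 and 13.4 CPM. Together with RAP2.6, DEWAX, AT4G21870 (an HSP20-like chaperone, -5.09 and -4.15) and CAF1a (a deadenylase of messenger RNA, -4.67 and -4.07), it made up the 5 genes at -4 or below in both treatments. AT3G51660, a tautomerase, differed by -5.72 and -3.36 and AT5G23510, an uncharacterized protein, by -4.76 and -3.43. AT1G72416, a DnaJ-domain protein, had 318, 355 and 387 CPM in Col-0 and 8.23, 28.3 and 13.4 CPM in WUS-GR with DEX. DIN11, a dark-inducible oxygenase, fell with TSA in both genotypes, by 2.71 in Col-0 and 2.95 in WUS-GR (adjusted p = 1.51e-06 and 8.63e-07). The uncharacterized gene AT5G19340 and AT5G19240, a GPI-anchored glycoprotein, rose in both (1.78 and 1.79 in Col-0, 1.86 and 1.93 in WUS-GR), as did AT1G31310, annotated as a hydroxyproline-rich glycoprotein (1.91 and 1.51). The rise of AT1G31310 in WUS-GR did not pass without replicate 1 of WUS-GR with TSA (edgeR adjusted p = 0.0538).

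The response of the set to TSA was tested within each genotype. In Col-0, 42 of the 124 genes were higher with TSA (33.9%) and 49 lower (39.5%) at an adjusted p below 0.05 (edgeR quasi-likelihood test, all 17915 genes), where 32.3% of all genes tested were higher and 33.6% lower. In WUS-GR, 61 were higher (49.2%) and 22 lower (17.7%), where 34.3% of all were higher and 35.3% lower. The median change was -0.21 in Col-0 and 0.57 in WUS-GR, against -0.00 and -0.01 over all genes tested. With scaling by library totals alone, which shifts the median change of all genes in WUS-GR to -0.42, the split in WUS-GR was 39 higher and 29 lower. In Col-0 the counts of the main fit were near the background. The libraries of all 4 groups are also part of the rule. A gene had to be high in both Col-0 groups against the WUS-GR groups of the same treatment to enter. Neither the counts in Col-0 nor the excess of rises in WUS-GR is therefore independent of the choice of genes.

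Most genes of the set that passed in both genotypes moved the same way in both. The share of all genes tested with each combination of calls is not given. The combinations counted here for the 124 are therefore a description of the set only. Of the 124, 35 rose in both, 21 fell in both, 17 rose only in WUS-GR and 7 only in Col-0, 19 fell only in Col-0 and 1 only in WUS-GR, and 15 passed in neither. A call in one genotype and not in the other is no test of a difference between them. With TSA, 9 genes were lower in Col-0 and higher in WUS-GR, and 0 were higher in Col-0 and lower in WUS-GR. Among the 301 genes that met the line with DEX alone only, 234 were higher with TSA in WUS-GR (77.7%) and 97 in Col-0 (32.2%), which again follows in part from how they were chosen.

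**Figure D4:**
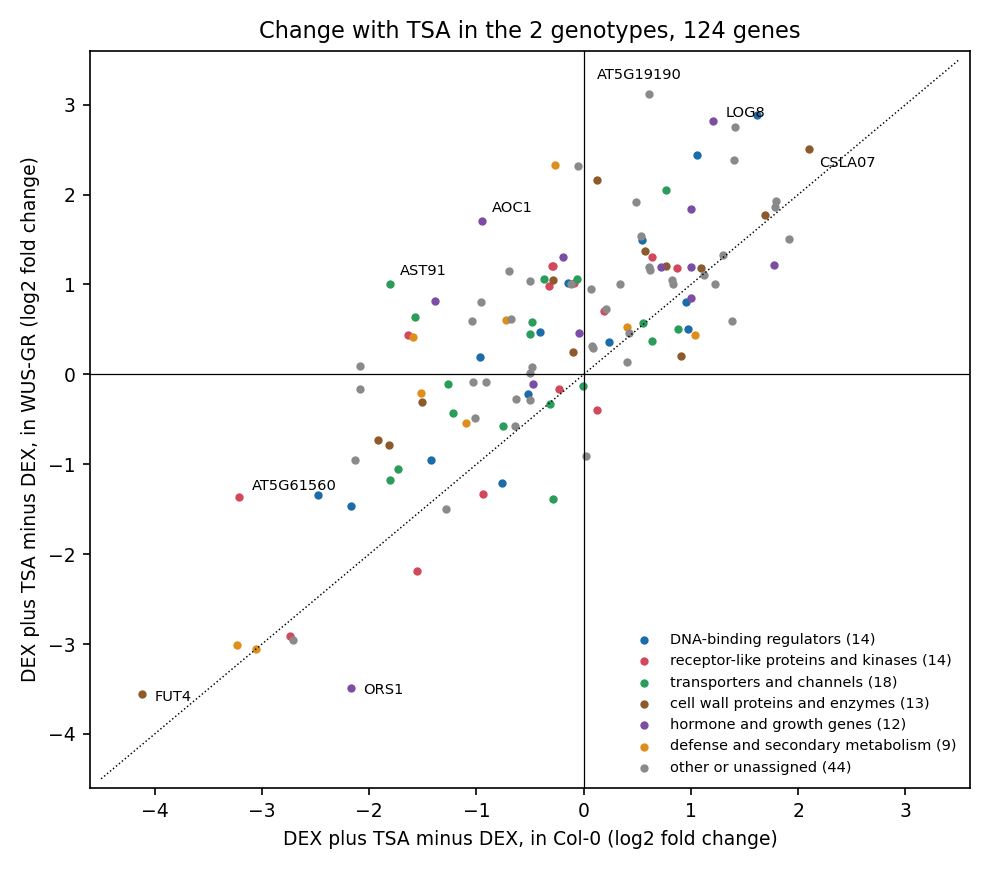
Log2 fold change with TSA in Col-0 (horizontal axis) and in WUS-GR (vertical axis) for the 124 genes, colored by role, with a dotted line where both are equal. Genes at the upper right rose in both genotypes, such as CSLA07 (2.1 and 2.51), those at the lower left fell in both, such as FUT4 (-4.12 and -3.56), and those at the upper left fell in Col-0 and were higher in WUS-GR, such as AST91 (-1.81 and 1.01).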

How the data were processed

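RNA of 12 libraries, 3 for each of 4 groups, was sequenced after poly(A) selection. Per the labels and the study's methods, the authors aligned reads to TAIR10 with HISAT2 and deposited raw counts per gene from featureCounts. The settings for strand and for reads with several matches are not given in the sources used here.

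Counts were filtered with filterByExpr (minimum count of 10) by group, scaled with TMM and expressed as log2 CPM with a prior count of 2. Values per library are CPM without a prior count. Changes with TSA were tested in one edgeR 4.0.16 fit of all libraries (R 4.3.3), with group means, the two-sided quasi-likelihood test and Benjamini-Hochberg adjustment over 17915 genes. Scripts were tested on simulated data. The study's methods call the RNA-seq replicates biological triplicates. The labels do not say whether libraries of a group came from separate cultures, so p-values measure only the spread between these libraries. Replicates differed by more than sampling noise (chi-square divided by its degrees of freedom 7.40 to 17.08), so none was counted as a copy. The depth of 14810658 to 21578662 counts limits precision by counting error, and detection floors cover counting error only.

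The genes and the lists were chosen with earlier results of these data known. Genes were named by fixed rules: the 10 deepest mean differences, the 10 highest levels per kb in Col-0, the 5 largest rises and falls with TSA in Col-0, the 3 nearest the line, up to 2 per list with 2 or more members, direct neighbors, and the 3 most like the mean of the set; others are marked. One gene that the rules name is not reported here. Symbols, positions and promoter windows came from RefSeq TAIR10.1, whose annotation covered all 124 genes. Alternatives were another scaling (library totals, DESeq2 1.42.0 size factors), filters, prior counts, lines of the rule, DESeq2's Wald test, a fit per genotype, a replicate block and leaving out each library.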

Additional observations from a re-analysis of the deposited data

Results flagged for a closer look

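In 6 genes every Col-0 library with TSA lay below every Col-0 library without it, while every WUS-GR library with TSA lay above every WUS-GR library without it, with both changes past the threshold. The share of all genes tested with this pattern is not given, so the count of 6 is a description of the set only. The difference between the genotypes' responses was not tested, because it is built from the values that chose the genes. The difference WUS-GR minus Col-0 was smaller in size with TSA by 2.95 for AST91, 2.68 for AOC1, 1.87 for AT5G14730 (an uncharacterized protein), 1.76 for CDSP32, 1.32 for AZI1 and 1.08 for AT4G18205, in log2 CPM. For AST91 the changes with TSA were -1.81 in Col-0 and 1.01 in WUS-GR, and for AOC1 -0.95 and 1.71 (edgeR quasi-likelihood test, adjusted p = 2.67e-07, 0.0117, 0.00266 and 1.62e-04). For CDSP32 they were -0.96 and 0.80 (adjusted p = 7.51e-07 and 8.71e-06). With scaling by library totals alone, the rises in WUS-GR of 3 of the 6 genes no longer passed: AST91 (0.61, edgeR adjusted p = 0.111), AZI1 (0.20, adjusted p = 0.217) and AT4G18205 (0.17, adjusted p = 0.320).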

How the results depend on the processing

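With library totals alone the median difference with TSA was -2.70 and 39 genes were higher with TSA in WUS-GR. The set held 255 genes at a line of -1.5, 47 at -2.5 and 54 where every WUS-GR library had to lie 2 below every Col-0 library. With a change of at least 2-fold required, 18 genes were higher and 32 lower with TSA in Col-0. The counts of all genes at that line, or with a library left out, are not given here. Nothing is therefore read from the balance of rises and falls in those settings. Leaving out 1 library at a time gave 118 to 134 genes, 36 to 43 higher and 45 to 54 lower in Col-0, and 52 to 68 higher and 19 to 25 lower in WUS-GR. Same-numbered replicates did not deviate together (correlations of -0.267 to 0.119). With the replicate block 41 were higher and 49 lower in Col-0 and 61 higher and 23 lower in WUS-GR. DESeq2's Wald test gave 39, 47, 66 and 20 in the same order. Over all 17915 genes tested, the block gave 5822 higher and 6063 lower in Col-0, and 6175 and 6350 in WUS-GR. DESeq2 called 6071 higher and 5479 lower of 20456 genes in Col-0, and 6410 and 5855 of 20913 in WUS-GR. Without genes that overlap one on the other strand, an alternative chosen after seeing the data, 96 remained. None of the results for the set changed direction. Of the single-gene changes with TSA recomputed, 2534 kept their side of the threshold, 75 no longer passed and 47 newly passed. A change that passed in neither fit was counted as kept whatever its direction. With library totals alone the rises in WUS-GR no longer passed for AST91 (0.61, adjusted p = 0.111), AZI1 (0.20, 0.217), AT4G18205 (0.17, 0.320), NPF6.2 (AT2G26690; 0.17, 0.338), AT5G07580 (0.62, 0.112), TMAC2 (0.42, 0.215), AT1G31310 (1.11, 0.0534), FKD1 (0.82, 0.0563), ARGOS (0.89, 0.0775) and AT4G21870 (0.60, 0.145), by edgeR's test. The causes were not tested.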
